A study of Mus musculus with 2 samples.

Results

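The 9 genes described here encode receptors through which hormones and growth factors act on the testis. They are *Fshr*, *Esr1*, *Thra*, *Thrb*, *Nr3c1*, *Insr*, *Igf1r*, *Pdgfra* and *Pdgfrb*, found by their symbols among the 32285 genes of the count tables and chosen by name, not by their values. Of the 9, all had UMIs in both libraries. The data are 2 libraries of single-cell RNA sequencing (scRNA-seq) from mouse testes at postnatal day (PD) 7. One library came from 1 control mouse. The other came from 1 *Brca1* vKO mouse, in which Vasa-Cre, a recombinase made only in germ cells, removes exons of the floxed *Brca1* allele (*Brca1* f/-, Vasa-Cre). The second *Brca1* allele of the mutant is deleted in all of its cells, somatic cells included, and controls were littermates. Germ cells therefore lack both alleles only where the recombinase has acted, and every somatic class of the mutant carries a single working allele.

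Hormone receptors fall into families that work in different ways. FSHR sits in the cell membrane and raises cyclic AMP when pituitary FSH binds it. ESR1, THRA, THRB and NR3C1 are nuclear receptors, transcription factors that bind oestrogen, thyroid hormone and glucocorticoids. INSR, IGF1R, PDGFRA and PDGFRB are receptor tyrosine kinases of the cell membrane. In the young testis, FSH and the insulin family are known for driving Sertoli cell number, thyroid hormone for ending Sertoli cell proliferation, and PDGF signals for building the Leydig and peritubular myoid compartments.

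*Fshr* is known as a gene of Sertoli cells, and its promoter is well known for an E-box, CACGTG, that the factors USF1 and USF2 bind. The RefSeq window of 250 bases before and 50 bases after its start site is shown for that reason, on the minus strand of GRCm38.p6 at chr17:89200626-89200925. The capitals mark the E-box, whose first base lies at -61 from the start site.
Fshr promoter: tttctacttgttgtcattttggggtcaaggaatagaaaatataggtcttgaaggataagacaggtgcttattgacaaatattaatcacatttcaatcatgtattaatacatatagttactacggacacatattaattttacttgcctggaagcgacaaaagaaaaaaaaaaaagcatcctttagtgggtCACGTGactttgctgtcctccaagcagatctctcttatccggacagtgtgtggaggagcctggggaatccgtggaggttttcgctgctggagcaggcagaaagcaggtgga
RefSeq windows were used for 5 of the 9 receptors (7 windows: *Fshr*, *Esr1*, *Thrb*, *Igf1r* and *Pdgfra*). CACGTG, which reads the same on both strands, was in 2 of the 7, that of *Fshr* and 1 of the 2 for *Thrb*, where it starts at -193. Among all 32817 windows of the same length, 7.15% held it. A match is a run of letters and not a measured binding site.

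After cells with few genes or many mitochondrial UMIs were removed, 5077 of 5812 control barcodes and 8712 of 9456 *Brca1* vKO barcodes remained. A UMI marks 1 captured RNA molecule, and the tables summed to 120568700 and 165062097 UMIs. More cells had been loaded from *Brca1* vKO testes, and the median cell held 16917 UMIs in the control and 12970.5 in *Brca1* vKO. The libraries shared 16 barcodes among kept cells. Cells were clustered together without the receptors and listed genes, and clusters were named from marker genes. Each class had the highest summed level of its own markers in both libraries, except that in *Brca1* vKO the myoid markers summed to 10993 CPM in pericyte-like cells and 10089 CPM in myoid-like cells. *Brca1* had 0.619 times the control level in *Brca1* vKO germ-like cells (95% interval 0.555 to 0.688), 0.863 times in Sertoli-like cells and 0.527 times in stromal-like cells. Which end of the transcripts was read is not given in the sources used here, so these ratios do not check the deleted exons.

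The classes were Sertoli-like (2020 control and 4162 *Brca1* vKO cells), stromal-like (855 and 1982), peritubular myoid-like (556 and 1415), Leydig-like (46 and 112), pericyte-like (47 and 69), endothelial-like (27 and 36) and germ-like cells (661 and 221). A low-depth cluster of 415 control and 54 *Brca1* vKO cells matched the germ markers best but stayed unnamed, outside the germ-like class. With it added, germ-like cells numbered 1076 and 275. Levels are given as CPM, the UMIs of a gene per 1000000 UMIs of the same class and library, and the value in the control comes first in each pair. They were compared across classes and libraries for 1 gene at a time, because CPM of different genes are not levels per length. Intervals are exact 95% intervals that cover counting error only. With 1 mouse per genotype, no difference between libraries can be set against the spread between mice, no test was made, and genotype cannot be told apart from mouse, library and cell loading.

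**Figure D1:**
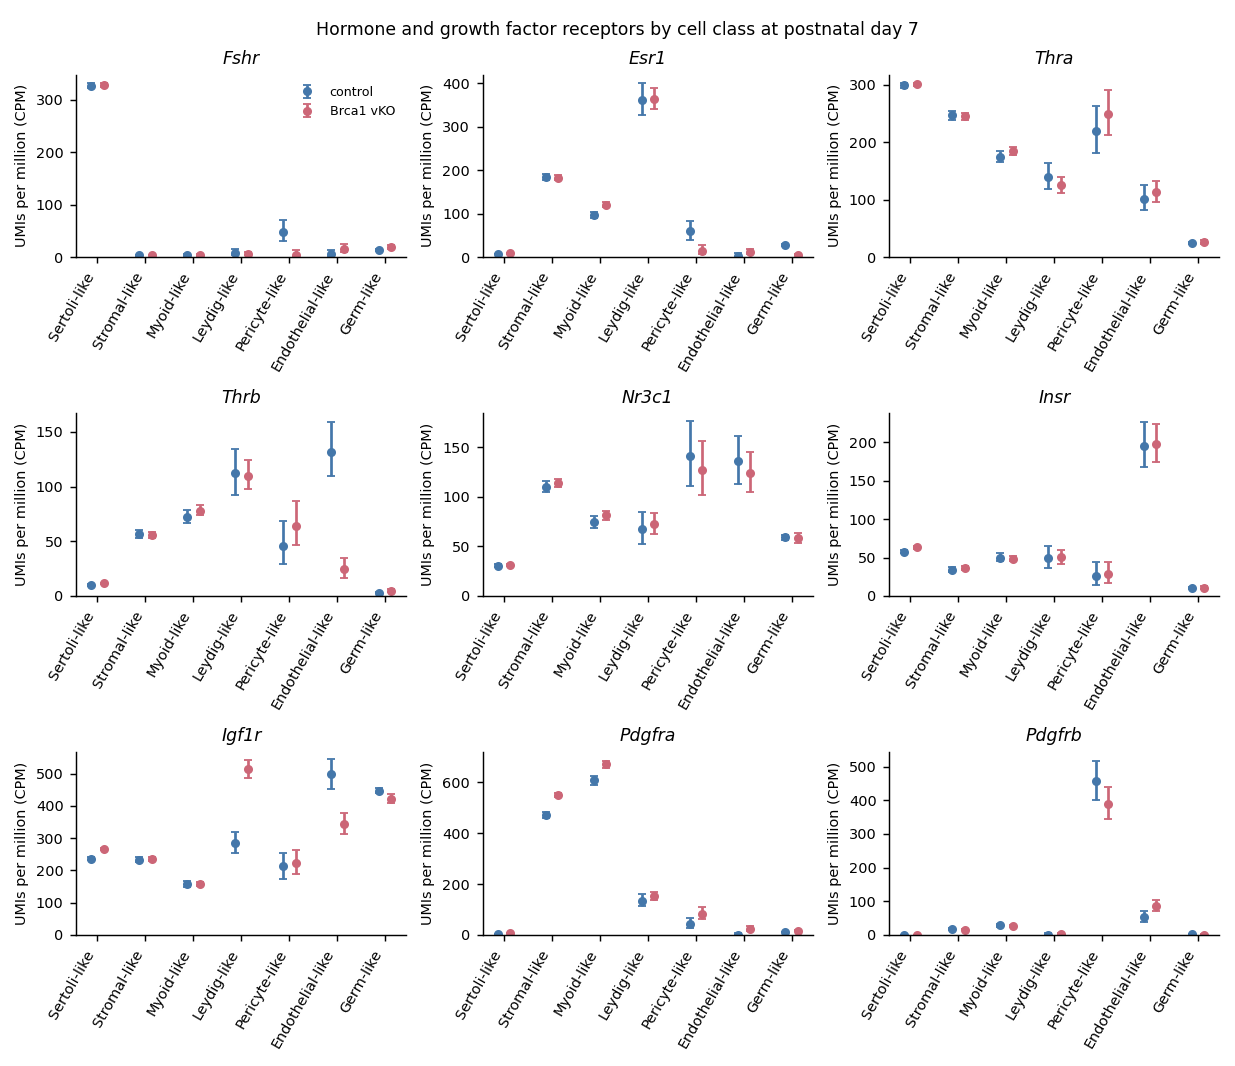
Levels of the 9 receptors in 7 cell classes of the control and *Brca1* vKO testis at PD7. Each panel is 1 receptor, the x axis is the cell class, the y axis is CPM on a linear scale from 0 that differs between panels, points are the 2 libraries and bars are exact Poisson 95% intervals. *Fshr* stands apart in Sertoli-like cells (327 and 328 CPM) and *Pdgfrb* in pericyte-like cells (456 and 390 CPM), whereas *Igf1r* lies between 158 and 513 CPM in every class.

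The receptors differed in the classes where they were highest. *Fshr* was led by Sertoli-like cells, *Insr* by endothelial-like cells and *Pdgfrb* by pericyte-like cells, each at least 2 times the next class in both libraries. *Insr* lost this lead when cells were classed by marker score, and *Pdgfrb* when mean UMIs per cell replaced CPM. These 3 of 9 receptors compare with 20.8% of the 16460 genes that had enough UMIs for the same rule. Among the remaining receptors, *Esr1* was highest in Leydig-like cells, *Thra* in Sertoli-like cells, *Nr3c1* in pericyte-like cells and *Pdgfra* in myoid-like cells of both libraries. The first class of *Nr3c1* was a near tie, with pericyte-like over endothelial-like cells at 1.04 (0.766 to 1.4) and 1.03 (0.78 to 1.35). Other classes came first for it when cells were classed by marker score or mean UMIs per cell were used. For *Thrb* and *Igf1r* the highest class was endothelial-like in the control and Leydig-like in *Brca1* vKO. In the control, endothelial-like and Leydig-like cells did not differ beyond counting error for *Thrb* (1.19, 0.91 to 1.54), and Leydig-like cells came first once the endothelial-like cell with the most UMIs was left out. With cells weighted equally, germ-like cells came first for *Igf1r* in the control.

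*Fshr* (ENSMUSG00000032937, chromosome 17, 88984952 to 89200675, minus strand, GRCm38) encodes the FSH receptor. Sertoli-like cells held 327 CPM (322 to 332) in the control and 328 CPM (325 to 332) in *Brca1* vKO, a ratio of 1 (0.985 to 1.02). The libraries thus differed by no more than counting error. When every cell was thinned to 2000 UMIs, 41.8% and 41.4% of Sertoli-like cells had an *Fshr* UMI, and 0.471% and 0.859% of stromal-like cells. Without thinning, at median depths of 18727 and 15616 UMIs in Sertoli-like and 16204 and 12146 UMIs in stromal-like cells, the shares were 91.1% and 89.3%, and 5.26% and 4.94%. In stromal-like cells *Fshr* stood at 3.14 and 4.14 CPM, in myoid-like cells at 3.49 and 4.05 CPM, and in Leydig-like cells at 8.53 and 6.44 CPM.

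Beyond Sertoli-like cells, neighbouring classes in the *Fshr* order mostly differed by less than counting error. Germ-like cells held 13.6 and 19.1 CPM, which was 4.16% and 5.82% of the level in Sertoli-like cells. The Sertoli markers themselves stood in germ-like cells at 4.58% to 5.54% of their Sertoli level in the control and at 4.45% to 6.68% in *Brca1* vKO, so *Fshr* was no higher there than the range of the Sertoli markers. Pericyte-like cells of the control had 47.7 CPM, but 15 of their 25 UMIs lay in 1 cell, and without that cell the level was 19.7 CPM. Endothelial-like cells had 5.66 CPM from 5 UMIs and 15.9 CPM from 20 UMIs.

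Sertoli-like cells formed a non-cycling cluster and a cycling cluster led by the cell cycle genes *Hist1h1b*, *Ube2c* and *Prc1*. The cycling cluster had 330 CPM against 325 CPM in the control, a ratio of 1.02 (0.985 to 1.05), and 331 against 326 CPM in *Brca1* vKO, a ratio of 1.01 (0.991 to 1.04). Both intervals hold 1, and no difference was detectable at this depth.

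Downstream of FSH and luteinizing hormone, 7 of 8 listed genes had enough UMIs in Sertoli-like cells. Of the 7, none was past 1.5-fold between libraries there, beside 6.23% of all genes. *Inha*, the inhibin alpha subunit that feeds back on FSH, had 1024 and 1113 CPM in Sertoli-like cells and 305 and 293 CPM in Leydig-like cells. *Lhcgr*, the receptor for luteinizing hormone, was the Leydig counterpart of *Fshr*, with 422 and 406 CPM in Leydig-like cells, at most 19.4 CPM in any other class, and 0.515 and 0.56 CPM in Sertoli-like cells. *Adcy9*, an adenylyl cyclase, was at 89.5 and 103 CPM in Sertoli-like cells. *Cyp19a1*, which makes oestrogen, had too few UMIs in every class.

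*Esr1* (ENSMUSG00000019768, chromosome 10, 4611593 to 5005614, plus strand) encodes oestrogen receptor alpha and was highest in the cells between and around the tubules. Leydig-like cells held 362 CPM (326 to 400) and 364 CPM (341 to 389). Stromal-like cells followed with 185 CPM (178 to 192) and 183 CPM (178 to 188), and myoid-like cells with 96.0 CPM (89.2 to 103) and 120 CPM (115 to 126). These 3 classes differed from one another beyond counting error in both libraries. After thinning, 46.7% and 44.6% of Leydig-like cells and 25.3% and 25.5% of stromal-like cells had an *Esr1* UMI.

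Sertoli-like cells were low, at 7.32 and 8.47 CPM, with an *Esr1* UMI in 0.749% and 1.20% of thinned cells. *Esr2*, the second oestrogen receptor, had its highest level there instead, at 19.6 and 26.2 CPM. Pericyte-like cells had 59.1 CPM in the control and 15.0 CPM in *Brca1* vKO, but 1 control cell carried 20 of the 31 UMIs, and without it the control level was 22.2 CPM. Endothelial-like cells had 3.40 CPM from 3 UMIs and 11.2 CPM from 14 UMIs.

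Germ-like cells gave the largest *Esr1* difference between libraries of any class with at least 50 UMIs. The control held 27.2 CPM (25.5 to 29.1, 886 UMIs, 235 of 661 cells with a UMI) and *Brca1* vKO 5.84 CPM (4.36 to 7.66, 52 UMIs, 28 of 221 cells). The ratio was 0.215 (0.159 to 0.284). After thinning, 5.30% of control and 0.455% of *Brca1* vKO germ-like cells had an *Esr1* UMI. Among the 6916 genes of germ-like cells with at least as many UMIs, 12 (0.174%) had a ratio as low, and among all 14968 genes with at least 50 UMIs 167 (1.12%) did.

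The same cells were compared for RNA carried over from other classes. In the control, *Esr1* in germ-like cells was at 14.7% of its stromal level, whereas the stromal markers were at 1.06% to 2.69% of theirs. In *Brca1* vKO, *Esr1* was at 3.19% and the stromal markers at 1.14% to 3.27%. The control value lay above the range of the stromal markers and the *Brca1* vKO value within it. Set against Leydig-like cells instead, *Esr1* in germ-like cells was at 7.52% and 1.6% of its Leydig level. The Leydig markers were at 0.209% to 1.57% and 0.0358% to 0.472% of theirs. Both *Esr1* values lay above those ranges, so the outcome for *Brca1* vKO depends on the class used. The summed stromal markers were 160 and 196 CPM in germ-like cells, and the neutrophil markers were 3.01 and 204 CPM; Scrublet marked 9.83% and 12.2% of germ-like cells as doublets. Their part in the *Esr1* difference was not tested. With marked doublets removed, *Esr1* had 26.2 and 2.53 CPM, a ratio of 0.0967. With cells above 5% mitochondrial UMIs removed it had 21.4 and 10.6 CPM, a ratio of 0.494. That limit came with a new clustering, in which 386 of 591 control and 51 of 102 *Brca1* vKO germ-like cells formed a low-depth cluster (medians of 3433 and 3609 UMIs).

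Germ-like cells are not of 1 kind, and they were split, after the data had been seen, by whether a cell had a UMI of a marker. The groups also differed in depth, though not always in the same direction. Control cells with a *Sox3* UMI had a median of 51692 UMIs and those without 39652.5, and in *Brca1* vKO the medians were 36971 and 37689.5. For *Gfra1* they were 46161 and 46559.5 in the control and 37571.5 and 29719 in *Brca1* vKO. *Gfra1*, a marker of spermatogonial stem cells, had a UMI in 403 of 661 control and 212 of 221 *Brca1* vKO cells, so the libraries differed in their make-up. *Sox3*, a progenitor marker, had a UMI in 409 control and 49 *Brca1* vKO cells.

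Within the control, *Esr1* was higher in cells on the progenitor side. Cells with a *Sox3* UMI had 33.4 CPM against 14.2 CPM without, a ratio of 2.36 (1.97 to 2.83). The same ratio was 2.46 for *Neurog3* (55.2 against 22.4 CPM), 2.57 for *Rarg* (42 against 16.4 CPM), 0.542 for *Kit* (19.4 against 35.7 CPM) and 0.757 for *Gfra1* (24.2 against 32.0 CPM). Between the libraries, cells with a *Gfra1* UMI had 24.2 CPM in the control and 5.35 CPM in *Brca1* vKO, a ratio of 0.221 (0.160 to 0.3), and cells with a *Sox3* UMI had 33.4 and 8.04 CPM, a ratio of 0.241 (0.137 to 0.394). The interval held 1 in cells without a *Gfra1* UMI (0.629, 0.229 to 1.38) and with a *Neurog3* UMI (0.575, 0.118 to 1.70).

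**Figure D2:**
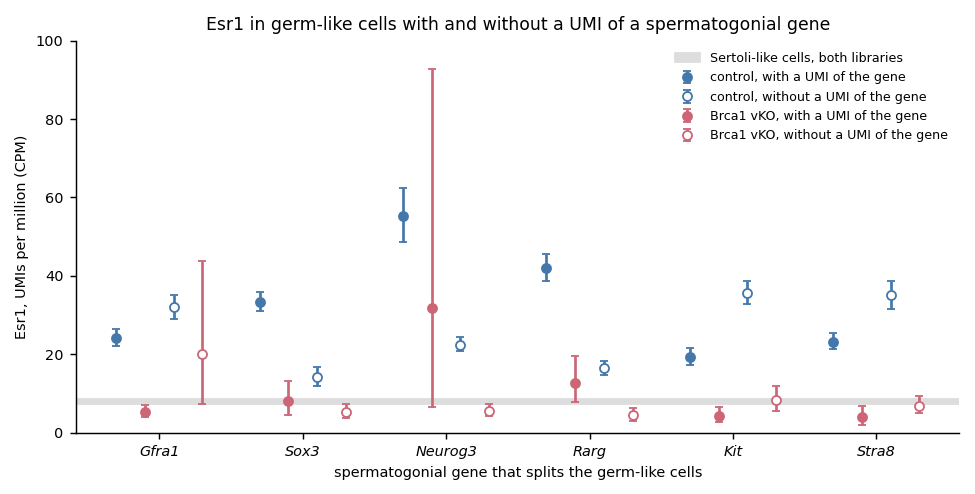
*Esr1* in germ-like cells of the control and *Brca1* vKO testis at PD7, split by a UMI of each of 6 spermatogonial genes on the x axis. The y axis is *Esr1* CPM, filled points are cells with and open points cells without a UMI of the gene, bars are exact Poisson 95% intervals, and the grey band is the *Esr1* level in Sertoli-like cells (7.32 and 8.47 CPM). Control points lie above *Brca1* vKO points in cells with a *Gfra1* UMI (24.2 and 5.35 CPM) and with a *Sox3* UMI (33.4 and 8.04 CPM), while the intervals overlap in cells without a *Gfra1* UMI and in the few *Brca1* vKO cells with a *Neurog3* UMI.

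Other receptors split germ-like cells differently. *Igf1r* was higher in control cells with a *Gfra1* UMI (525 CPM) than in those without (325 CPM), a ratio of 1.61 (1.56 to 1.67), and the ratio was 1.48 (1.19 to 1.85) in *Brca1* vKO. *Nr3c1* was at 63.5 CPM with and 52.3 CPM without a *Gfra1* UMI in the control. In *Brca1* vKO it was at 57.5 CPM with and 93.8 CPM (62.3 to 136, 28 UMIs) without, the reverse order. For both receptors, the *Brca1* vKO level without a *Gfra1* UMI rests on 9 cells. *Igf1r* was lower in control cells with a *Sox3* UMI (423 CPM) than in those without (499 CPM), the reverse of *Esr1*.

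The myoid *Esr1* level was 1.25 times the control level in *Brca1* vKO (1.15 to 1.37). Stromal-like cells had a ratio of 0.990 (0.943 to 1.04) and Leydig-like cells 1.01 (0.892 to 1.14). Among the other sex steroid genes, *Pgr*, the progesterone receptor, was found mainly in stromal-like cells (21.9 and 20.1 CPM). *Greb1*, known as an oestrogen-responsive gene, was highest in Sertoli-like cells and had 61.4 CPM in the control and 94.6 CPM in *Brca1* vKO, a ratio of 1.54 (1.48 to 1.60). It was the 1 of 7 measured genes of the list past 1.5-fold in that class, beside 6.23% of all genes.

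*Thra* (ENSMUSG00000058756, chromosome 11, 98740638 to 98769006, plus strand) encodes thyroid hormone receptor alpha and was high across the somatic classes. Sertoli-like cells held 299 CPM (295 to 304) and 301 CPM (298 to 304), stromal-like cells 247 and 245 CPM, and pericyte-like cells 219 and 250 CPM. Myoid-like cells had 175 and 185 CPM, Leydig-like cells 139 and 125 CPM, and endothelial-like cells 102 and 113 CPM. Stromal-like and pericyte-like cells did not differ beyond counting error in either library. Germ-like cells were lowest, at 23.9 and 26.2 CPM, which was 7.97% and 8.70% of the Sertoli level. After thinning, 45.1% and 44.1% of Sertoli-like cells and 4.54% and 2.27% of germ-like cells had a *Thra* UMI. *Nr1d1* overlaps *Thra* on the opposite strand, and reads in the overlap may be split between them if strand was not used in counting.

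*Thrb* (ENSMUSG00000021779, chromosome 14, 17660261 to 18038090, plus strand), thyroid hormone receptor beta, had another pattern. It was low in Sertoli-like cells, at 10.2 and 11.6 CPM, where *Thra* was highest. Leydig-like cells held 112 CPM (92.5 to 134) and 110 CPM (97.7 to 124), myoid-like cells 72.6 and 78.1 CPM, stromal-like cells 56.6 and 55.6 CPM, and pericyte-like cells 45.8 and 64.3 CPM. After thinning, 20% and 20.5% of Leydig-like cells and 1.95% and 1.92% of Sertoli-like cells had a UMI. Germ-like cells had 2.86 and 4.83 CPM, the lowest class for this receptor too, with a ratio of 1.69 (1.15 to 2.45).

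*Thrb* was most uneven between the libraries in endothelial-like cells, which line blood vessels. They had 132 CPM (110 to 159, 117 UMIs) in the control and 24.7 CPM (16.8 to 35.1, 31 UMIs) in *Brca1* vKO, a ratio of 0.186 (0.121 to 0.279). However, 70 of the 117 control UMIs came from 1 of the 27 cells. Without the cell with the most UMIs in each library the levels were 61.4 and 17.2 CPM, a ratio of 0.279. Of 6625 genes in this class, 4 (0.0604%) had a ratio as low as *Thrb* before that cell was left out.

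Among the 13 listed genes of thyroid hormone transport, conversion and response, the deiodinases *Dio1*, *Dio2* and *Dio3* had too few UMIs to describe, and the partner receptor *Rxrg* had enough only in germ-like cells (2 and 2.47 CPM). *Klf9*, a known thyroid hormone and glucocorticoid target, was higher in *Brca1* vKO in each of the 7 classes, with ratios from 1.24 in myoid-like cells to 3.52 in endothelial-like cells and an interval that held 1 in pericyte-like cells alone (0.956 to 1.79). In Sertoli-like cells it had 33.0 and 57.2 CPM, a ratio of 1.73 (1.64 to 1.83), although neither thyroid hormone receptor was past 1.5-fold there. *Klf9* was the only one of the 8 measured genes of the list past 1.5-fold in Sertoli-like cells, beside 6.23% of all genes, and the list's median ratio was 1.08 and that of all genes 0.998.

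*Nr3c1* (ENSMUSG00000024431, chromosome 18, 39410545 to 39519421, minus strand), the glucocorticoid receptor, had UMIs in every class. Pericyte-like cells held 141 and 127 CPM, endothelial-like cells 136 and 124 CPM, and stromal-like cells 110 and 114 CPM. The first pair did not differ beyond counting error in either library. Myoid-like cells had 74.3 and 81.4 CPM, Leydig-like cells 67.3 and 72.5 CPM, and germ-like cells 59.2 CPM (56.5 to 61.9) and 58.8 CPM (53.8 to 64.0).

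Sertoli-like cells were lowest for *Nr3c1*, at 30.6 and 31.0 CPM, so that germ cells held 1.94 and 1.89 times the Sertoli level. The germ level was 53.6% and 51.4% of the stromal level, where no stromal marker passed 3.27% of its own. After thinning, 11% and 10% of germ-like cells and 19.8% and 20.1% of stromal-like cells had an *Nr3c1* UMI, against 5.09% and 4.55% of Sertoli-like cells. The 7 ratios between libraries ran from 0.901 in pericyte-like to 1.10 in myoid-like cells, and all intervals held 1.

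Other genes of glucocorticoid handling and response had their own patterns. *Fkbp4*, a cochaperone of the receptor, was highest in germ-like cells, at 458 and 522 CPM, as was *Tsc22d3*, a glucocorticoid target also known as GILZ, at 243 and 195 CPM. *Fkbp5*, a second cochaperone and a glucocorticoid target, was at 126 and 141 CPM in Sertoli-like, 138 and 131 CPM in Leydig-like and 95.7 and 131 CPM in germ-like cells. *Sgk1*, a kinase induced by glucocorticoids, was highest in endothelial-like cells, at 126 and 164 CPM. *Hsd11b2*, which inactivates glucocorticoids, was at 41.1 and 35.4 CPM in myoid-like cells and 40.0 and 17.9 CPM in pericyte-like cells. In germ-like cells, 1 of 8 measured genes of the list was past 1.5-fold upwards and 2 downwards, beside 8.97% and 14.8% of all genes, with a median ratio of 0.864 against 0.965 for all genes.

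*Insr* (ENSMUSG00000005534, chromosome 8, 3122061 to 3279617, minus strand), the insulin receptor, was led by endothelial-like cells, at 196 CPM (168 to 227) and 198 CPM (174 to 224). Sertoli-like cells came next, at 57.8 and 63.4 CPM, so the endothelial level was 3.39 and 3.12 times higher. Myoid-like cells had 50.1 and 48.8 CPM and Leydig-like cells 49.3 and 50.7 CPM, which did not differ from each other. Stromal-like cells had 34.3 and 36.2 CPM, pericyte-like cells 26.7 and 28.4 CPM and germ-like cells 10.6 and 11 CPM. After thinning, 36.0% and 29.4% of endothelial-like cells and 3.03% and 2.73% of germ-like cells had a UMI. No class passed 1.5-fold between libraries, and the Sertoli ratio was 1.10 (1.05 to 1.14).

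*Igf1r* (ENSMUSG00000005533, chromosome 7, 67952827 to 68233668, plus strand), the receptor for IGF1 and IGF2, was the least restricted of the 9, with its highest and lowest classes closer together than those of any other receptor. Germ-like cells held 447 CPM (440 to 454) and 421 CPM (408 to 435), and 53.4% and 52.3% of thinned germ-like cells had a UMI, against 23.7% and 26.8% of myoid-like cells. The highest class held only 1.11 and 1.22 times the germ level, whereas germ-like cells were the lowest class for *Thra*, *Thrb* and *Insr*. Sertoli-like cells had 236 and 266 CPM, stromal-like cells 233 and 234 CPM, pericyte-like cells 212 and 224 CPM, and myoid-like cells 158 CPM in both libraries.

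Endothelial-like and Leydig-like cells changed places between the libraries. In endothelial-like cells *Igf1r* had 497 CPM (452 to 546) and 345 CPM (313 to 379), a ratio of 0.694 (0.606 to 0.795). With each cell weighted equally, a setting added after the data were seen, the levels were 313 and 255 CPM. In Leydig-like cells it had 284 CPM (253 to 318) in the control and 513 CPM (485 to 542) in *Brca1* vKO, a ratio of 1.81 (1.59 to 2.05), and 275 and 483 CPM with equal weights. The share of thinned Leydig-like cells with a UMI was 42.2% and 58.9%. Of 276 genes with at least as many UMIs in Leydig-like cells, 7 (2.54%) had a ratio as high.

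The Leydig-like classes also differed in the markers of other classes, and the part of this in the *Igf1r* ratio was not tested. Their summed stromal markers were 758 and 1553 CPM, Sertoli markers 1214 and 760 CPM, and Leydig markers 6035 and 6889 CPM. Among the other genes of the insulin family list, *Grb10*, an adaptor that binds INSR and IGF1R, was also higher in Leydig-like cells of *Brca1* vKO, at 117 and 255 CPM, a ratio of 2.17 (1.79 to 2.65). It was 1 of 10 measured genes of that list past 1.5-fold there, a smaller share than the 15.4% of all genes. *Ghr*, the growth hormone receptor of another list, was lower, at 90.9 and 45.5 CPM, a ratio of 0.5 (0.378 to 0.664).

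The ligands *Igf1* and *Igf2* were highest in another class than *Insr* and *Igf1r*. *Igf1* was highest in stromal-like cells, at 832 and 879 CPM, and at 272 and 324 CPM in myoid-like cells. *Igf2* followed the same order, with 204 and 180 CPM in stromal-like cells. Germ-like cells held 10.3 and 16.4 CPM of *Igf1* and 10.7 and 28.6 CPM of *Igf2*. *Ins2*, an insulin gene, was found at 10.5 and 4.75 CPM in Sertoli-like cells, a ratio of 0.454 (0.401 to 0.513). Its highest level was in Leydig-like cells, at 15.2 and 12.5 CPM, the class that came first for *Igf1r* in *Brca1* vKO. *Ins1* had too few UMIs.

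Binding proteins and adaptors of the family were spread over several classes. *Igfbp7* reached 5076 and 5293 CPM in endothelial-like cells, and *Igfbp3* was highest there too, at 250 and 237 CPM. *Irs2*, an adaptor of both receptors, was highest in myoid-like cells (179 and 221 CPM). *Igf2r*, which clears IGF2, was highest in pericyte-like cells (114 and 117 CPM). In germ-like cells 4 of 13 measured genes were past 1.5-fold upwards and 3 downwards, beside 8.97% and 14.8% of all genes, with a median ratio of 1.16 against 0.965 for all genes. In Sertoli-like cells 0 of 13 were past it upwards and 2 downwards, beside 2.90% and 3.33% of all genes.

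**Figure D3:**
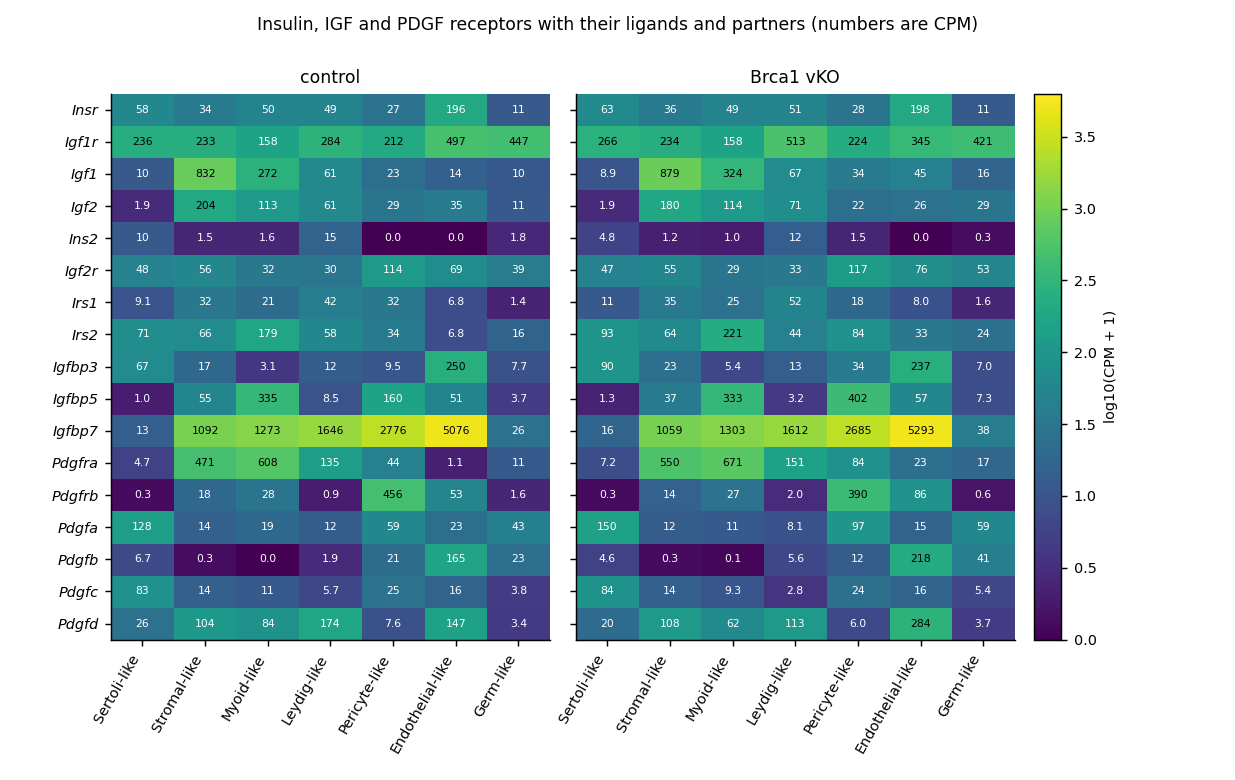
Levels of the insulin, IGF and PDGF receptors and of their ligands and partners in 7 cell classes, with 1 panel for each library. The x axis is the cell class, the y axis the gene, the number in a cell is its CPM and the colour is log10(CPM + 1). *Igf1* is highest in stromal-like cells (832 and 879 CPM), *Pdgfa* in Sertoli-like cells (128 and 150 CPM) and *Pdgfb* in endothelial-like cells (165 and 218 CPM), while *Pdgfra* is highest in myoid-like and *Pdgfrb* in pericyte-like cells.

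*Pdgfra* (ENSMUSG00000029231, chromosome 5, 75152292 to 75198215, plus strand), PDGF receptor alpha, marked the mesenchymal classes. Myoid-like cells held 608 CPM (591 to 626) and 671 CPM (658 to 684), and stromal-like cells 471 CPM (460 to 482) and 550 CPM (541 to 559). Leydig-like cells had 135 and 151 CPM, which was 3.48 and 3.65 times below the stromal level. The first 3 classes differed beyond counting error in both libraries. After thinning, 62.0% and 67.9% of myoid-like cells and 0.5% and 0.89% of Sertoli-like cells had a UMI. The ratio between libraries was 1.10 (1.07 to 1.14) in myoid-like cells and 1.17 (1.13 to 1.20) in stromal-like cells.

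At the low end, *Pdgfra* was at 4.71 and 7.16 CPM in Sertoli-like cells and at 11 and 16.7 CPM in germ-like cells, with a ratio of 1.52 in each class. With marked doublets removed the levels were 1.73 and 3.92 CPM in Sertoli-like and 4.83 and 10 CPM in germ-like cells. With at most 5% mitochondrial UMIs they were 17 and 22.6 CPM in Sertoli-like and 20.3 and 26.5 CPM in germ-like cells. That limit came with a new clustering, so the classes changed too. The Sertoli-like class then included a cluster of 33 and 132 cells, and the germ-like class a low-depth cluster of 386 and 51 cells. In the main clustering, an unnamed cluster with 97.6% and 85.5% marked doublets had 220 and 279 CPM of *Pdgfra*. Its overlap with that Sertoli-like cluster was not tested. The main Sertoli values of 4.71 and 7.16 CPM were 1% and 1.30% of the stromal level, where stromal markers were at 0.778% to 1.05% and 0.711% to 1.10%. *Pdgfra* in cycling Sertoli-like cells was 4.41 times its level in the others in the control (9.41 against 2.14 CPM) and 2.53 times in *Brca1* vKO (11.1 against 4.39 CPM). Scrublet marked 4.23% and 3% of cycling Sertoli-like cells as doublets, and 0.328% and 0.330% of the others. Their part in the difference between the clusters was not tested.

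*Pdgfrb* (ENSMUSG00000024620, chromosome 18, 61045150 to 61085061, plus strand), PDGF receptor beta, is the defining receptor of pericytes, the cells that wrap small vessels. Pericyte-like cells held 456 CPM (400 to 517) and 390 CPM (344 to 441), a ratio of 0.856 (0.716 to 1.03). After thinning, 53.2% and 47.1% of them and 3.06% and 2.53% of stromal-like cells had a UMI. Myoid-like cells had 28.4 and 26.8 CPM and stromal-like cells 17.7 and 14.4 CPM. Germ-like, Sertoli-like and Leydig-like cells were at 2.01 CPM or less.

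Endothelial-like cells had 53.2 CPM of *Pdgfrb* in the control and 86.1 CPM in *Brca1* vKO, a ratio of 1.62 (1.14 to 2.33). It was no longer past 1.5-fold with marked doublets removed (59.8 and 82.8 CPM) or with cells classed by marker score (36 and 40.9 CPM), and with equal weights the levels were 15.8 and 47.2 CPM. All 47 control UMIs lay in 3 of 27 cells, 21 of them in 1 cell, and 12 of 36 *Brca1* vKO cells had a UMI. The summed pericyte markers were 411 and 729 CPM in endothelial-like cells, and their part in this value was not tested. In pericyte-like cells *Pdgfra* had 43.9 CPM (16 of 23 UMIs in 1 cell) and 83.7 CPM (19 of 56 UMIs in 1 cell), a ratio of 1.91 (1.16 to 3.25), and 14.2 and 56.6 CPM without those cells.

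Cells of 1 class could carry both PDGF receptors. Among thinned cells, 1.88% and 1.57% of stromal-like cells had UMIs of both, where the product of the separate shares is 1.73% and 1.60%. In myoid-like cells the share was 3.25% and 4.10%, against products of 3.25% and 3.99%. The joint shares were thus close to what independent detection gives within each class.

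RNA of the PDGF ligands was highest in other classes than that of the receptors. *Pdgfa* was highest in Sertoli-like cells, at 128 CPM in the control and 150 CPM in *Brca1* vKO, and *Pdgfc* too, at 83.4 and 84.1 CPM. Pericyte-like cells, highest for *Pdgfrb*, came next for both. The Sertoli level was 2.17 and 1.54 times theirs for *Pdgfa*, and 3.36 and 3.52 times for *Pdgfc*. *Pdgfb* was highest in endothelial-like cells, at 165 and 218 CPM. *Pdgfd* had 174 and 113 CPM in Leydig-like cells and 147 and 284 CPM in endothelial-like cells. *Pdgfra* and *Pdgfrb* were highest in neither Sertoli-like nor endothelial-like cells.

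**Figure D4:**
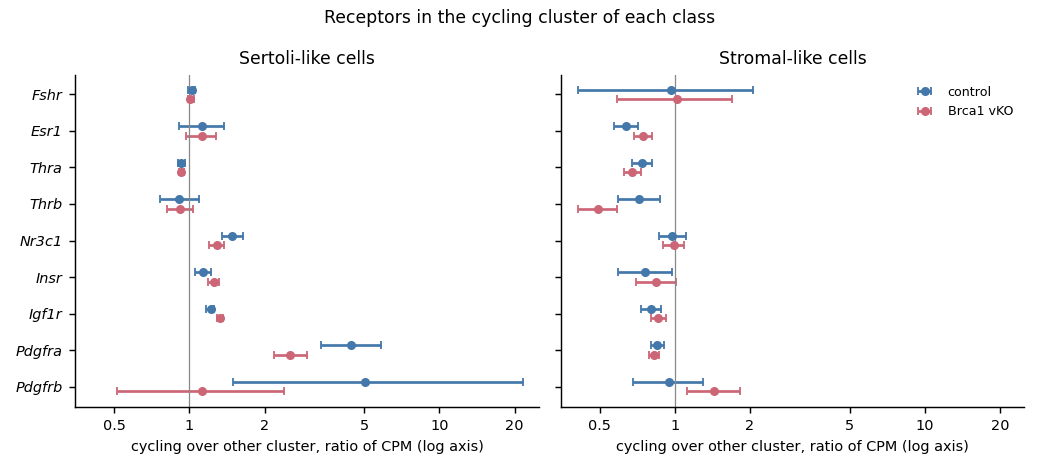
Ratio of each receptor's CPM in cycling cells over the other cells of the same class, in Sertoli-like and stromal-like cells of both libraries. The x axis is the ratio on a log scale, points are the libraries and bars are exact 95% intervals. *Fshr* lies at 1.02 and 1.01 in Sertoli-like cells, *Igf1r* at 1.22 and 1.32, and *Thra* below 1 in both classes.

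Across cycling and other cells, the receptors of Sertoli-like cells moved in different directions. *Igf1r* was higher in cycling cells, with ratios of 1.22 (1.17 to 1.26) and 1.32 (1.29 to 1.36), as was *Insr*, with 1.13 (1.05 to 1.22) and 1.25 (1.19 to 1.31). *Nr3c1* was at 1.48 (1.35 to 1.64) and 1.29 (1.20 to 1.38). *Thra*, by contrast, was lower, at 0.928 (0.899 to 0.959) and 0.929 (0.908 to 0.951). In stromal-like cells, *Thra* was at 0.742 and 0.676, *Esr1* at 0.638 and 0.745, *Thrb* at 0.719 and 0.493 and *Igf1r* at 0.804 and 0.859. *Igf1r* therefore had a ratio above 1 in Sertoli-like and below 1 in stromal-like cells of both libraries. Clusters were made from all genes but the receptors and listed genes, and cycling cells are deeper than the others.

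**Figure D5:**
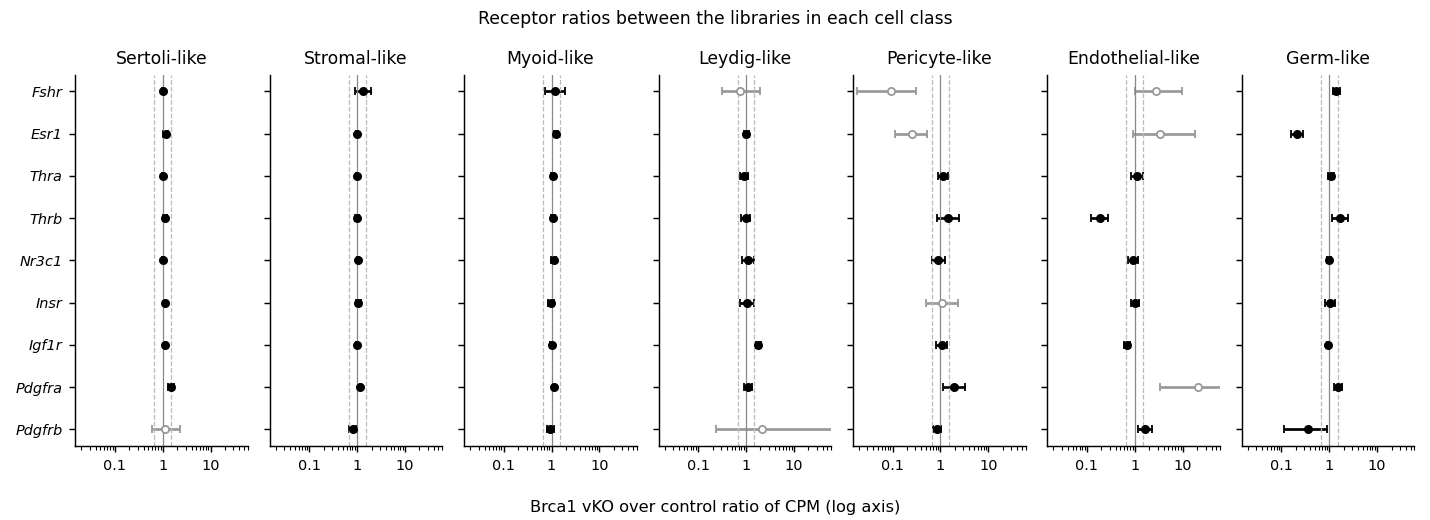
Ratio of each receptor's CPM in *Brca1* vKO over control in 7 cell classes. The x axis is the ratio on a log scale, the dashed lines mark a change of 1.5-fold either way, bars are exact 95% intervals that are cut at the edge of the axis, and open grey points have under 50 UMIs in both sums together. Most points with at least 50 UMIs lie within 1.5-fold, and 9 lie past it. They include *Thrb* in endothelial-like cells (0.186), and *Esr1* (0.215) and *Pdgfrb* (0.359) in germ-like cells. *Pdgfra* in pericyte-like cells (1.91) and *Igf1r* in Leydig-like cells (1.81) are also among them.

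Between the libraries, 9 of the 54 pairs of receptor and class with at least 50 UMIs were past 1.5-fold. Of these 9, 5 were still past it with marked doublets removed, and 5 with at most 5% mitochondrial UMIs. *Esr1* in germ-like, *Thrb* in endothelial-like and *Igf1r* in Leydig-like cells were past it in both cases. In Sertoli-like cells 1 of 8 was past it, *Pdgfra*, where 6.23% of all genes were. In stromal-like cells 0 of 9 were, beside 5.10% of all genes, and in myoid-like cells 0 of 9, beside 5.89%. In Leydig-like cells it was 1 of 7 (*Igf1r*), beside 15.4%, and in pericyte-like cells 1 of 6 (*Pdgfra*), beside 14.4%. In endothelial-like cells 2 of 6 were (*Thrb* and *Pdgfrb*), beside 13.1%. Germ-like cells had 4 of 9 (*Esr1*, *Thrb*, *Pdgfra* and *Pdgfrb*), beside 23.8%, where *Thrb* rested on 93 and 43 UMIs and *Pdgfrb* on 51 and 5. The median ratio of all genes was between 0.965 and 1.01 in the 7 classes.

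For each receptor, the genes with the most similar levels over the 14 sums of class and library were found among 15627 genes with at least 200 UMIs. Pearson's r was taken on log2(CPM + 10), and it is a description, since the 14 sums are 7 classes seen in 2 libraries. *Fshr* was most like *Plppr4* (r = 0.978), *Erbb4* (0.973) and *Gm14858* (0.973). *Esr1* was most like *Sct* (0.974), *Dlgap1* (0.972) and *Rab40b* (0.963). *Pdgfra* was most like *Col4a6* (0.987), *Mfap4* (0.984) and *Icosl* (0.980), and *Pdgfrb* was most like *Notch3* (0.992), *Inpp4b* (0.988) and *Abcc9* (0.985), the last a pericyte marker.

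The neighbours of the remaining receptors were as follows. *Thra* was most like *Zfp30* (0.968), *Poglut2* (0.964) and *Camk2d* (0.958), and *Thrb* like *Fas* (0.931), *Tfpi* (0.918) and *Tmco1* (0.913). *Nr3c1* was most like *Stat2* (0.957), *Hotairm1* (0.946) and *Ifitm3* (0.938). *Insr* was most like *Fam181b* (0.947), *Prrc2b* (0.944) and *Rgcc* (0.941). For *Igf1r*, which is spread over all classes, the values were lowest, with *Paf1* (0.889), *Wdr92* (0.884) and *Babam1* (0.868).

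Among the receptors themselves, *Esr1* and *Pdgfra* were the most alike pair (r = 0.80 over the same 14 sums), followed by *Nr3c1* and *Pdgfrb* (0.77). *Fshr* and *Nr3c1* ran most opposite (-0.70), then *Thra* and *Igf1r* (-0.67). The first pair shares the stromal-like, myoid-like and Leydig-like classes, and the last pair differs most in germ-like cells.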

How the data were processed

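The authors sequenced the libraries on the 10x Genomics Chromium platform, aligned reads to mm10 and made a table of UMIs for each library with Cell Ranger 6.0.2. The submitters' processing notes also name R 4.2.3 and Seurat 4.3.0.1. The deposited values are raw counts of UMIs for called barcodes, without normalization or filtering of cells, and whether intronic reads were counted is not given in the sources used here.

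Cells were kept from 750 detected genes upwards and up to 10% of mitochondrial UMIs. Counts were log-normalized, 2000 variable genes without the 9 receptors and 62 listed genes were reduced to 20 components, corrected for library by an implementation of Harmony (theta 2, lambda 1, sigma 0.1, at most 10 rounds), and clustered at a resolution of 0.25 with 20 neighbours (Seurat 5.3.0, R 4.3.3). A cluster was named from its markers if at least 3 were detected in 10% of cells, their mean standardized expression reached 0.5 and its own markers were at least as frequent among its top 10 genes as those of any other class. Low-depth clusters with none of their markers there stayed unnamed. No cells were removed as doublets. Scrublet (scanpy 1.11.5, Python 3.11.15) marked 161 control and 249 *Brca1* vKO cells.

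UMIs were summed per class and library and given as CPM with exact Poisson intervals. Ratios have exact conditional intervals and shares exact Clopper-Pearson intervals (scipy 1.17.1, numpy 2.4.6). Shares were taken after thinning each cell to 2000 UMIs, shallower cells left out. A ratio past 1.5-fold needed 50 UMIs or more over the pair of sums. The genes named are the 9 receptors, the genes of 7 lists and the 3 genes most like each receptor, plus germ cell markers used to split germ-like cells, which were chosen after their values were seen. Results for some listed genes are not reported here. The receptors and lists were chosen with earlier results of these data known. Coordinates are from GENCODE on GRCm38, the assembly of mm10. Scripts were tested on simulated data. Alternatives changed filters, clustering, doublets, class assignment, scaling (TMM in edgeR 4.0.16), fold and thinning. Those that weighted cells equally or left out the cell with the most UMIs were added after seeing the data.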

Additional observations from a re-analysis of the deposited data

Results flagged for a closer look

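Among pairs with at least 50 UMIs, *Esr1*, *Thrb*, *Igf1r* and *Pdgfrb* had a ratio between *Brca1* vKO and control above 1 in 1 cell class. In another class the ratio was below 1, and the intervals exclude 1 in both. The share of all genes that do so was not counted, so this is no result about receptors as a group. The differences between classes were not tested. For *Esr1* the ratios were 1.25 in myoid-like and 0.215 in germ-like cells. For *Thrb* they were 1.69 in germ-like and 0.186 in endothelial-like cells, the latter resting largely on 1 control cell. The germ-like levels of *Thrb* were 1.44 and 1.47 CPM with marked doublets removed. With at most 5% mitochondrial UMIs they were 4.92 and 4.91 CPM, so the higher *Brca1* vKO level was not seen in either setting. For *Igf1r* they were 1.81 in Leydig-like and 0.694 in endothelial-like cells. For *Pdgfrb* they were 1.62 in endothelial-like and 0.359 in germ-like cells, where *Brca1* vKO held 5 UMIs. The endothelial-like ratio of *Pdgfrb* was no longer past 1.5-fold with marked doublets removed.

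Outside the 7 classes, 2 clusters held more of a receptor than any class in both libraries. A cluster of 338 control and 352 *Brca1* vKO cells with medians of 3559 and 2237 UMIs, led by haemoglobin genes, had 322 CPM (293 to 352) and 343 CPM (309 to 379) of *Thra*. The same cluster held 42.9 and 37.5 CPM of *Fshr*, and 17.4 and 22.3 CPM of *Igf1r*, which was lower than in any of the 7 classes. A cluster of 51 and 142 cells led by the neutrophil genes *S100a9* and *S100a8* had 171 CPM (144 to 201) and 143 CPM (126 to 162) of *Nr3c1*. It also held the macrophage gene *C1qa* among its leading genes.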

How the results depend on the processing

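No paired analysis was possible because each genotype had 1 library. Most values stayed within their counting intervals under the alternatives. Apart from the values per cell given below, the cause of those that did not was not tested. With at most 5% mitochondrial UMIs, the ratio of *Brca1* vKO to control was 0.972 for *Fshr* in Sertoli-like cells and 1 for *Thrb* in germ-like cells (1.69 before). The cells were clustered anew at that limit, so the make-up of the classes also changed. With mean UMIs per cell in place of CPM the ratio was 0.912 for *Fshr* and 0.914 for *Thra* in Sertoli-like cells. It was 0.829 for *Pdgfra* in myoid-like cells, where the CPM ratio was above 1. A mean per cell is not scaled by depth, and *Brca1* vKO cells of these classes were shallower. Median UMIs were 18727 and 15616 in Sertoli-like and 13563.5 and 9846 in myoid-like cells. With cells weighted equally the ratio was 0.975 for *Fshr*, 1.02 for *Thra* and 0.813 for *Igf1r* in endothelial-like cells. With each cell given the class of its highest marker score, it was 0.802 for *Esr1* in Leydig-like cells, 0.429 for *Thrb* and 0.795 for *Insr* in endothelial-like cells, 1.14 for *Pdgfra* in myoid-like cells and 0.698 for *Pdgfrb* in pericyte-like cells. Leaving out the cell with the most UMIs gave 0.279 for *Thrb* in endothelial-like cells. *Esr1* in germ-like cells ranged from 0.0967 to 0.494 and *Igf1r* in Leydig-like cells from 1.59 to 1.93. Removing marked doublets took *Thrb* in germ-like cells to 1.44 and 1.47 CPM. At a fold of 2, 3 pairs of receptor and class were past it, and with at least 1 UMI in each sum 15 of 63 were past 1.5-fold. The share of all genes was not counted under either rule, so these counts are no result about receptors as a group. Thinned to 5000 UMIs, the shares with a UMI were 65.8% and 67.2% for *Fshr*, 77.6% and 76.6% for *Thra*, 75.0% and 69.6% for *Esr1* in Leydig-like, 86.4% and 87.8% for *Pdgfra* in myoid-like, and 44.2% and 44.1% for *Nr3c1* and 69.8% and 74.6% for *Pdgfrb* in pericyte-like cells. In endothelial-like cells they were 77.3% and 52.9% for *Igf1r* and 58.8% for *Insr* in *Brca1* vKO. Depth limits pericyte-like cells most, where 3 counts are 5.72 and 4.49 CPM.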

Other observations

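Other hormone receptors of the testis were measured beside the 9. *Prlr*, the prolactin receptor, was highest in Leydig-like cells (355 and 374 CPM) and stromal-like cells (268 and 348 CPM, a ratio of 1.30), and lay at 3.70 and 3.45 CPM in Sertoli-like cells. *Ghr* was spread over pericyte-like (231 and 173 CPM), endothelial-like (216 and 151 CPM), stromal-like (214 and 212 CPM) and myoid-like cells (192 and 187 CPM). *Vdr*, the vitamin D receptor, was found mainly in Sertoli-like cells, at 24.4 and 23.6 CPM, and stood at 0.279 and 0.664 CPM in stromal-like cells. Of 55 listed genes with enough UMIs, 19 were led by 1 class by the same rule as the receptors, beside 20.8% of all genes.

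A small unnamed cluster of 19 control and 8 *Brca1* vKO cells, whose leading genes include *Ecrg4*, *Rmst*, *Igfbp2* and *Pax8*, had 482 and 558 CPM of *Igf1r* and 127 and 131 CPM of *Thra*. In the same cells *Pdgfra* was at 13.1 and 6.57 CPM.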
